A study of Mus musculus with 20 samples.

Results

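The glycolysis and hypoxia response genes are 35 named genes, chosen by symbol from the 24391 genes counted in every sample. They comprise 16 glycolytic enzymes, 4 transporters of glucose or lactate, 3 regulators of glycolytic flux, 3 genes of oxygen sensing and 9 further genes known to respond to low oxygen. The rule that defines them uses symbols and no measured value. The members were nevertheless chosen with earlier results of these data known, so the counts below are not independent of that choice. The 20 RNA-seq samples are of E2-10HA, a hybridoma labelled as mouse mature T-cells. A hybridoma is a T cell fused with a tumour line, so it divides continuously.

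Of the 6 groups, the H2A.Z guide cells (n = 6) carried lentiCRISPRv2 and guides that target both genes of the histone variant H2A.Z, H2afz and H2afv, and the CRISPR control cells (n = 6) carried the empty vector; both were selected with puromycin. NICD-ER cells carried pMIGRI Flag-NICD-ER IRES GFP, which encodes the Notch intracellular domain (NICD) fused to estrogen receptor sequence that binds its ligand, and were sorted. They received 4-hydroxytamoxifen (4-OHT), the receptor's ligand, for 24 hours (n = 2), or ethanol, its solvent, for the same time (n = 2). No cells without NICD-ER received 4-OHT, so an effect of 4-OHT itself cannot be told apart from one of NICD. BioNICD cells carried the biotin ligase BirA and a biotin-tagged NICD, selected with histidinol and sorting; the NICD was either the form labelled DEP mutant (n = 2) or wild type (n = 2). The labels describe growth in IMDM medium with serum and give no oxygen level. All guide samples carry 1 line number in their titles, so an effect of the guides cannot be told apart from a difference of that line. The guide effect below means the difference between these samples and the controls. DEP and wild-type NICD were carried by different cells, so the mutation likewise cannot be told apart from another difference between those cells. Separate cultures are not stated for the replicates, so each p-value reflects the variation among these libraries alone, and that variation may be technical.

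Glycolysis splits glucose into pyruvate in the cytosol, and cells that regenerate NAD by reducing pyruvate to lactate can run it without oxygen. When oxygen falls, prolyl hydroxylases stop marking the transcription factor subunit HIF-1α for destruction, and HIF-1 then raises the transcription of most glycolytic enzymes, of glucose transporters and of genes such as Car9 and Vegfa. Activated T cells and many tumour lines run this programme at normal oxygen too. HIF activity is controlled mainly at the level of protein, so Hif1a mRNA is not a readout of it.

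Total counts ran from 13309111 to 18344298 in the guide samples and from 10704131 to 15440584 in their controls, and from 16371601 to 48238324 in the NICD samples. The members took 1.76% to 2.55% of all counts with the guides and 2.93% to 3.33% in the controls. They took 1.27% to 1.28% with 4-OHT and 1.51% to 1.56% with ethanol, and 2.86% in both DEP samples against 2.53% to 2.54% in wild type. H2afz, a targeted gene, averaged 5.19 ± 0.440 CPM with the guides, against 28.2 ± 2.50 CPM in controls, and H2afv 36.0 ± 12.0 CPM against 127 ± 11.8 CPM (SD, n = 6 each). CPM, the usual unit of counts scaled to library size, were computed with TMM factors over all 20 samples. Of 13 T cell markers, 9 or 10 averaged at least 1 CPM in each group, Cd8a and Cd8b1 were at or near 0, and no B cell marker reached that level. The T cell markers summed to 1570 to 2440 CPM with the guides and 1230 to 1580 CPM in their controls, to 1750 to 1800 CPM with 4-OHT and 1620 to 1640 CPM with ethanol, and to 1310 to 1350 CPM in DEP and 1740 to 1770 CPM in wild type. Single markers differed in direction. With the guides 5 of 10 tested were called higher and 3 lower (31.8% and 32.7% of all genes). By at least 1.5-fold 3 were higher and 3 lower (11.6% and 9.46% of genes). With 4-OHT 2 of 11 were called higher and 4 lower (19.0% and 17.2% of genes), 1 each by at least 1.5-fold (4.37% and 2.69%). In DEP 1 of 11 was called higher and 7 lower (33.6% and 32.0% of genes). Of those 7, 4 were lower by at least 1.5-fold (16.4% of genes). In 6 of the 8 CRISPR samples numbered 3 to 6 description and title disagree on the group, and the plasmid field matches the title, which was used. CRISPR replicates 1 and 2 (set 1) carry a treatment field that replicates 3 to 6 (set 2) lack, and the file headers record separate output directories for the sets. Guide replicate 1 and control replicate 1 held fibroblast marker counts (summed level 43.3 and 35.2 CPM over 6 markers, against 0 to 0.474 CPM in the other 10 CRISPR samples). Rn45s, the ribosomal RNA precursor, took up to 7.67% of the counts in guide replicates 5 and 6 and 6.73% in control replicate 6.

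With the H2A.Z guides the glycolysis and hypoxia response genes were lower almost throughout. Of the 34 members tested, 29 were called lower and 4 higher at an adjusted p under 0.05, and Hif1a was not called; Eno1 was under the count filter. Over all 10662 genes tested, 64.5% were called, 32.7% lower and 31.8% higher. Among the members, 17 were called lower by at least 1.5-fold and 2 higher, where 9.46% and 11.6% of all genes were (21.1% in all). Their median log2 fold change was -0.58, also with Eno2 at its bound, and that of all genes -0.01. In 20 members every guide sample lay below every control, and in 4 above (16.5% and 17.1% of all genes, 33.7% in all). In bulk RNA, fewer cells of a type and less RNA per cell cannot be told apart.

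**Figure D1:**
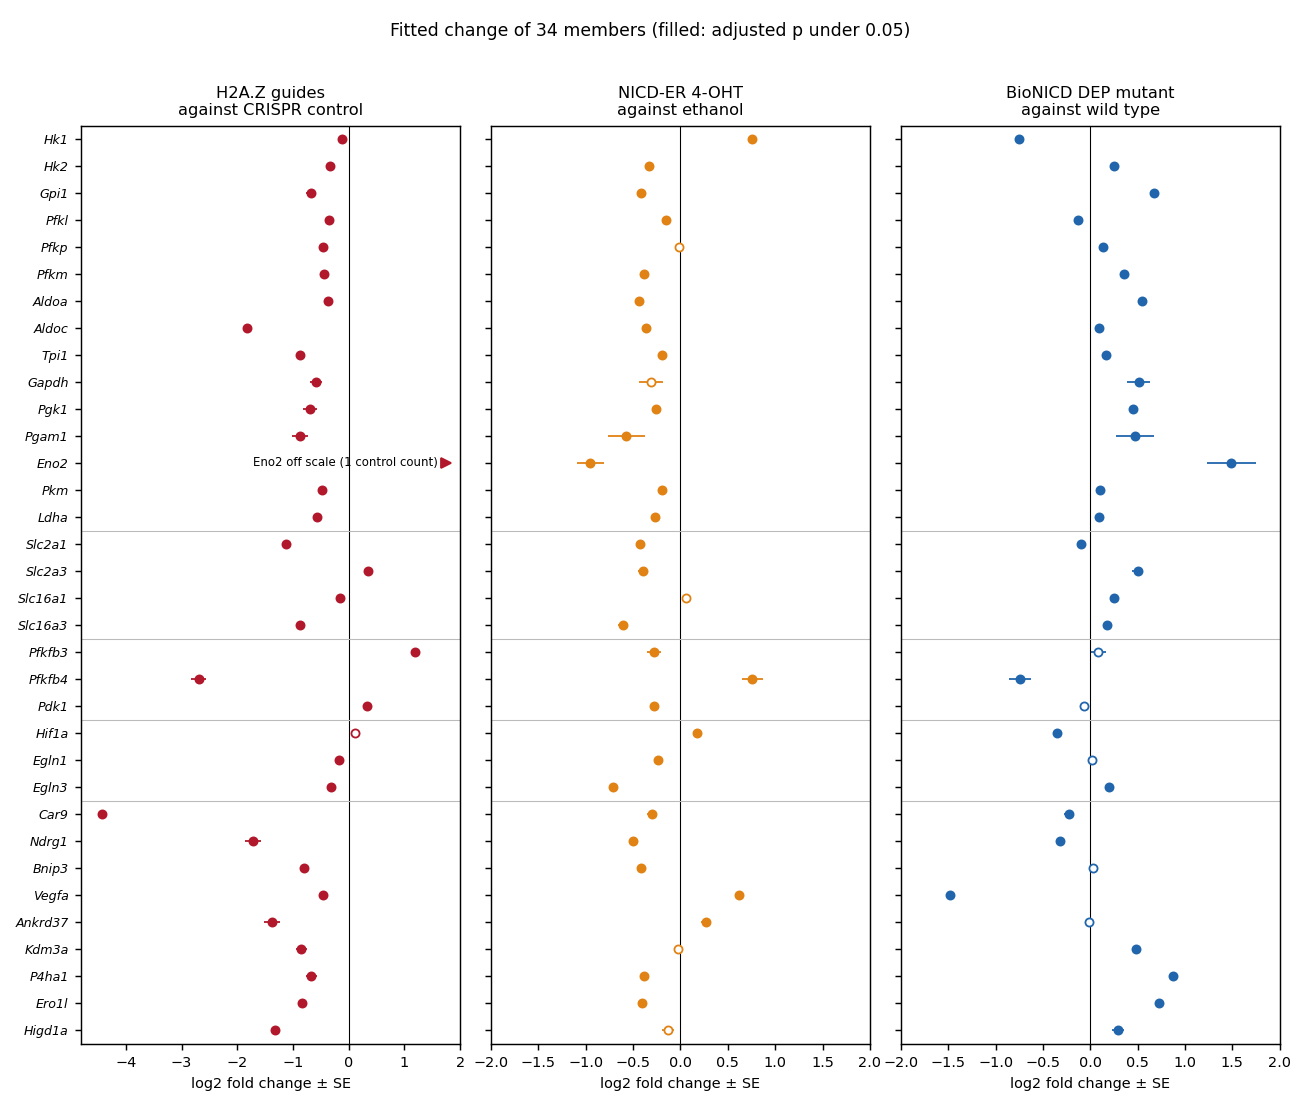
Fitted log2 fold change (horizontal axis, ± SE) of the 34 tested members (rows, by role) in H2A.Z guides against CRISPR control, NICD-ER 4-OHT against ethanol and BioNICD DEP mutant against wild type. Filled points passed an adjusted p of 0.05; the horizontal scale of the first panel is wider, and Eno2 is off that scale because the controls held 1 count. Most points lie left of 0 in the first panel (29 called lower) and the second (24 called lower), and right of 0 in the third (21 called higher).

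Among the glycolytic enzymes, 14 of the 15 tested were called lower with the guides, 6 of them by at least 1.5-fold, with a median log2 fold change of -0.48. Their mean was 0.04 with Eno2 as fitted and -0.01 with Eno2 at its bound. Aldoc, the aldolase best known from brain, ran from 74.7 to 109 CPM with the guides (median 80.4) and from 277 to 356 CPM in the controls (median 279). The groups were far apart, and within each the set 1 samples were the highest. The log2 fold change was -1.82 (SE 0.0405, adjusted p = 4.74e-15).

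Tpi1, which interconverts the 2 triose phosphates, averaged 751 ± 121 CPM with the guides, against 1360 ± 85.0 CPM in controls. Gpi1, the isomerase of the step after hexokinase, averaged 1120 ± 306 CPM with the guides, against 1740 ± 67.2 CPM in controls. Ldha, the lactate dehydrogenase subunit that favours lactate production, ran from 1550 to 1720 CPM with the guides (median 1600) and from 2270 to 2520 CPM in the controls (median 2330). The Ldha groups did not overlap, and Ldha fell by 0.56 on the log2 scale (SE 0.0358, adjusted p = 1.34e-09). The hexokinases, which phosphorylate glucose, moved less, Hk2 by -0.33 and Hk1 by -0.12, a call lost without control replicate 1 or guide replicate 4. The 3 phosphofructokinase genes, whose enzyme makes the committed step, moved alike, Pfkp by -0.47, Pfkm by -0.44 and Pfkl by -0.35, and Pfkp held 69.4% to 72.2% of their summed level per kilobase with the guides and 71.0% to 71.6% in the controls. Aldoa, the main aldolase here, changed by -0.37, and its groups overlapped (5000 to 8750 CPM with the guides, 7000 to 9280 CPM in the controls). Pgk1, an ATP-forming kinase of the pathway, changed by -0.69, and Pkm, the pyruvate kinase that forms the last ATP, by -0.48. In set 1 alone Aldoa (-0.12), Pgk1 (-0.76) and Pkm (-0.27) were not called, nor were Hk1, Hk2, Gpi1, Pfkl and Pfkm.

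Gapdh, Pgam1 and Eno1 were counted at 5.34 ± 1.26, 2.67 ± 0.611 and 0.0108 ± 0.0265 CPM with the guides and at 7.90 ± 0.612, 4.96 ± 0.378 and 0.0232 ± 0.0359 CPM in the controls. These levels are very low beside the 6170 CPM of Aldoa with the guides. The recorded counting command sets no option for reads that map to several places, and genes with near-identical copies elsewhere in the genome lose such reads, so values for these 3 genes, and to a lesser degree for Ldha, Pkm, Pgk1, Aldoa and Tpi1, are uncertain. Pgam1 ran from 1.72 to 3.58 CPM with the guides (median 2.74) and from 4.5 to 5.56 CPM in the controls (median 4.94), on 245 and 390 counts in all.

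Eno2, the enolase best known from neurons, went against the other enzymes. It ran from 12.6 to 15.5 CPM with the guides (median 13.6) and from 0 to 0.0657 CPM in the controls (median 0), that is 1227 counts against 1. All 6 guide samples were alike, and 5 of the 6 controls held no count. The ratio of the pooled levels was 1070, with a 95% counting interval of 192 to 42400 that covers counting error only. Per kilobase of exon, Eno2 with the guides (4.87 CPM) lay between the regulators Pfkfb3 (9.35 CPM) and Pfkfb4 (0.472 CPM), and since Eno1 was hardly counted its share of enolase RNA cannot be given.

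Of the transporters, Slc2a1, the basal glucose transporter GLUT1, ran from 251 to 374 CPM with the guides (median 255) and from 596 to 632 CPM in the controls (median 616). The 2 guide samples of set 1 were the highest of their group, and no guide sample came near a control (log2 fold change -1.13, SE 0.0650, adjusted p = 3.88e-10). Slc2a3, GLUT3, was higher, from 48.4 to 54.7 CPM with the guides (median 52.5) and from 35.4 to 46.0 CPM in the controls (median 40.3), by 0.35 (SE 0.0538, adjusted p = 2.90e-05). Per kilobase, Slc2a3 made up 7.76% to 12.4% of the 2 genes' sum with the guides and 3.58% to 4.65% in the controls. Slc16a3, the lactate exporter MCT4, averaged 138 ± 4.89 CPM with the guides, against 251 ± 7.52 CPM in controls (-0.87), and Slc16a1, the transporter MCT1, changed by -0.15.

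The 3 regulators split. Pfkfb3 and Pfkfb4 encode enzymes that set the level of fructose 2,6-bisphosphate, an activator of phosphofructokinase. Pfkfb3 ran from 48.4 to 51.3 CPM with the guides (median 49.1) and from 18.8 to 24.8 CPM in the controls (median 21.7), and rose by 1.19 (SE 0.0581, adjusted p = 5.07e-11). Pfkfb4 ran from 1.17 to 2.30 CPM with the guides (median 1.42) and from 9.68 to 11.1 CPM in the controls (median 10.3), and fell by 2.69 (SE 0.131, adjusted p = 4.97e-11). Neither pair of groups overlapped, and per kilobase Pfkfb3 made up 93.0% to 96.4% of the pair with the guides and 54.2% to 62.0% in the controls. Pdk1, a kinase that inhibits pyruvate dehydrogenase and so limits the entry of pyruvate carbon into the TCA cycle, ran from 173 to 208 CPM with the guides (median 202) and from 153 to 165 CPM in the controls (median 157), higher by 0.32 (SE 0.0445, adjusted p = 1.19e-05).

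**Figure D2:**
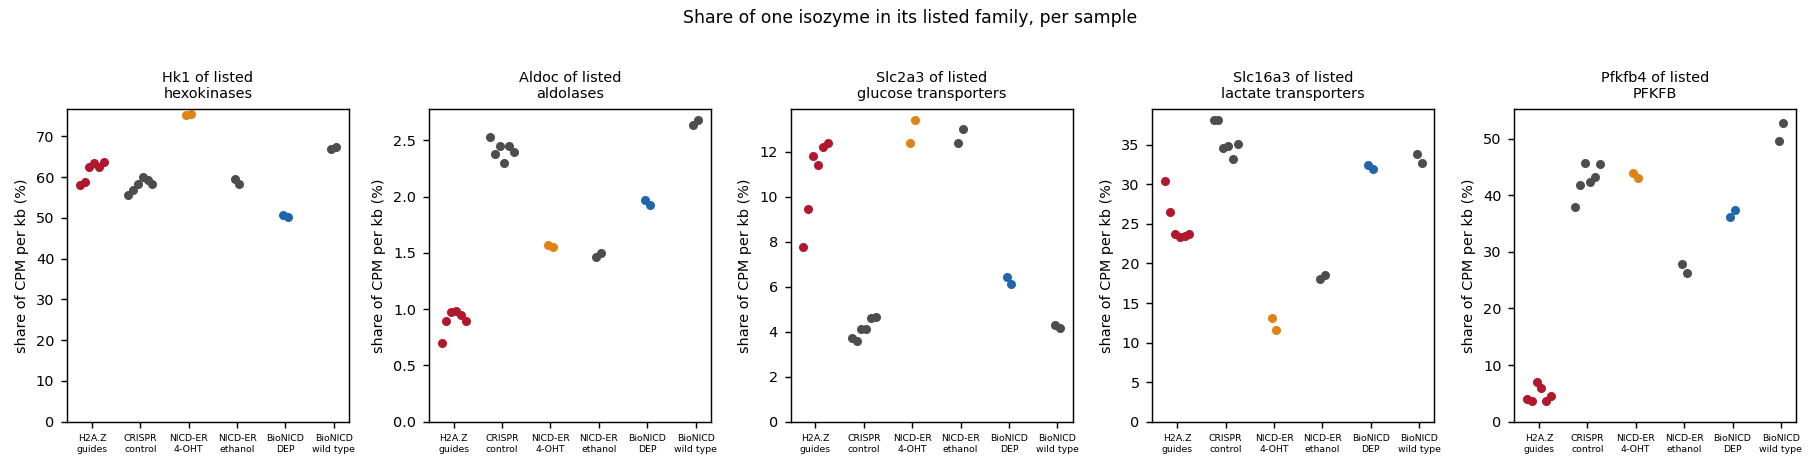
Share (%) of one gene in the summed CPM per kilobase of its listed family, 1 point per sample: Hk1 among Hk1 and Hk2, Aldoc among Aldoa and Aldoc, Slc2a3 with Slc2a1, Slc16a3 with Slc16a1, and Pfkfb4 with Pfkfb3. The Pfkfb4 share is 3.64% to 6.96% with the guides and 38.0% to 45.8% in the CRISPR controls; the Hk1 share is 75.3% to 75.4% with 4-OHT and 58.4% to 59.5% with ethanol.

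In RNA, the 3 listed genes of oxygen sensing had a median log2 fold change of -0.18, with 2 called lower and none by at least 1.5-fold. Other components of HIF signalling are given further below. Hif1a ran from 281 to 382 CPM with the guides (median 370) and from 300 to 349 CPM in the controls (median 320), and the groups overlapped (0.12, SE 0.0637, adjusted p = 0.125). In set 2 alone it was higher by 0.25 (adjusted p = 5.47e-07), in set 1 alone the fitted value was -0.15 (adjusted p = 0.404). It was called higher without guide replicate 1 (0.18, adjusted p = 0.00191) and without control replicate 1 (0.17, adjusted p = 0.0174), the libraries with fibroblast marker counts, and without both (0.21, adjusted p = 0.000243). Egln3, a prolyl hydroxylase that is itself a HIF target, averaged 537 ± 36.9 CPM with the guides, against 668 ± 77.2 CPM in controls (-0.32). Egln1, the main prolyl hydroxylase of HIF-1α, changed by -0.18 and lost its call when control replicate 6, guide replicate 4 or guide replicate 5 was left out. Egln1 and Ankrd37 lie on mouse chromosome 8, where the median log2 fold change of all tested genes was 0.51.

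All 9 hypoxia response genes were called lower with the guides, 8 of them by at least 1.5-fold, with a median of -0.85. Car9 encodes carbonic anhydrase IX, a membrane enzyme that acidifies the cell's surroundings and a standard marker of hypoxia. It ran from 6.79 to 10.2 CPM with the guides (median 8.44) and from 175 to 196 CPM in the controls (median 183). Every guide sample of either set lay far below every control, and the log2 fold change was -4.43 (SE 0.0686, adjusted p = 2.94e-17), the largest fall of any member. Ndrg1, a stress-responsive gene and one of the most abundant members, ran from 1000 to 1740 CPM with the guides (median 1020) and from 3390 to 4290 CPM in the controls (median 4250). Its set 1 guide samples were the highest guides and its set 1 controls the lowest controls, so the fall of 1.72 (SE 0.141, adjusted p = 2.65e-08) pools unequal sets.

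Ankrd37, an ankyrin-repeat gene known as a HIF-1 target, ran from 13.3 to 40.1 CPM with the guides (median 15.6) and from 47.5 to 63.0 CPM in the controls (median 52.2). The 2 set 1 guide samples stood at 40.1 and 32.3 CPM and no other guide sample above 16.5 CPM (log2 fold change -1.38, SE 0.148, adjusted p = 5.95e-07). Higd1a, a hypoxia-induced mitochondrial protein, ran from 23.4 to 32.6 CPM with the guides (median 30.8) and from 65.1 to 83.1 CPM in the controls (median 75.3), without overlap (-1.32, SE 0.0680, adjusted p = 9.28e-11). Among the other 5, Kdm3a, a histone demethylase, changed by -0.85, Ero1l, an oxidase of the endoplasmic reticulum, by -0.83, and Bnip3, a mitophagy receptor, by -0.80. P4ha1, a collagen prolyl hydroxylase, changed by -0.67 and Vegfa, the vascular growth factor, by -0.47. Vegfa alone of the 9 had a guide sample among the controls, guide replicate 1 at 256 CPM.

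**Figure D3:**
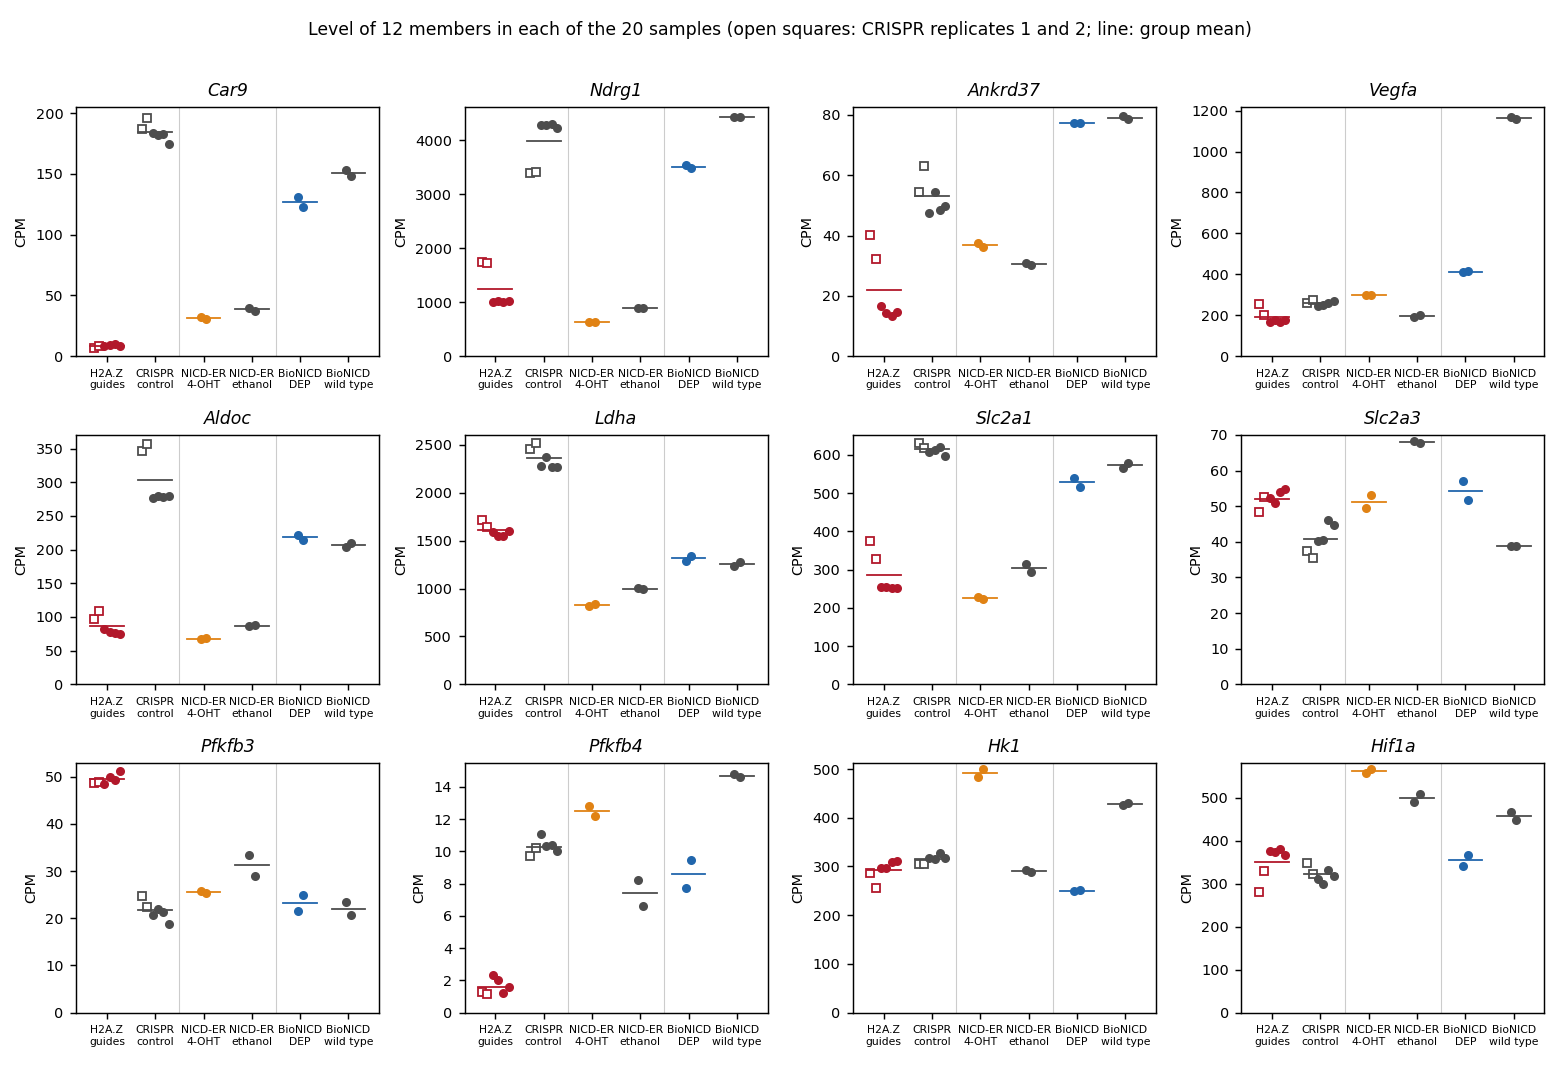
CPM (vertical axis, from 0) of 12 members in every sample of the 6 groups; points are samples, open squares are CRISPR replicates 1 and 2, and lines are group means. Car9 lies between 6.79 and 10.2 CPM in the guide samples and between 175 and 196 CPM in the controls, and Vegfa stands at 413 and 414 CPM in the DEP samples and at 1170 and 1160 CPM in wild type.

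The promoters of the members are shown for a motif that HIF factors are known to bind, the core ACGTG with its variant GCGTG. RefSeq promoter windows of build GRCm38.p6, reaching from 250 bases before to 50 bases after each start, were found for 33 of the 35 members (49 windows; Ero1l is listed there as Ero1a); the other members are Slc2a3 and Ndrg1. On either strand, ACGTG occurred in 27 member windows (55.1%) and in 19.6% of all 32851 windows, GCGTG in 27 (55.1%) and 32.4%, and either one in 38 (77.6%) and 43.8%. The 2 motifs share no occurrence but can overlap when they adjoin, and windows differ in base composition, which was not adjusted for. A window with either motif was found for 30 of the 33 matched members and for 46.7% of all 27025 genes in the table. It was found for 26 of the 28 matched members called lower with the guides and for 2 of the 3 called higher, and whether this differs with the call was not tested. The list was drawn up from glycolysis genes and genes known to respond to low oxygen. A share above that of all windows can therefore come from the choice of list, and any part of the motif in the changes was not tested. A match describes letters, not binding. Shown are the 5 members with the largest falls that have a window and, for contrast, Eno2 and Pfkfb3, which rose; capitals mark ACGTG and GCGTG on either strand (CACGT and CACGC when read from the other strand), and for genes with several starts the most upstream is given. The Car9 window is chr4:43506776-43507075 on the plus strand. The Pfkfb4 window is chr9:108991652-108991951 on the plus strand. The Aldoc window is chr11:78322823-78323122 on the plus strand. The Ankrd37 window is chr8:45999801-46000100 on the minus strand. The Higd1a window is chr9:121857747-121858046 on the minus strand. The Eno2 window is chr6:124769624-124769923 on the minus strand. The Pfkfb3 window is chr2:11553880-11554179 on the minus strand.
Car9: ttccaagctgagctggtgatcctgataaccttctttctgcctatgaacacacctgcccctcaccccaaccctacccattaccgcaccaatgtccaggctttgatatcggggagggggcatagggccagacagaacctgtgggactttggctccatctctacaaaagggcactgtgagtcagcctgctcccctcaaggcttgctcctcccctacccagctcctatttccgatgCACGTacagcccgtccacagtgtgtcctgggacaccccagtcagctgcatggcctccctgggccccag
Pfkfb4: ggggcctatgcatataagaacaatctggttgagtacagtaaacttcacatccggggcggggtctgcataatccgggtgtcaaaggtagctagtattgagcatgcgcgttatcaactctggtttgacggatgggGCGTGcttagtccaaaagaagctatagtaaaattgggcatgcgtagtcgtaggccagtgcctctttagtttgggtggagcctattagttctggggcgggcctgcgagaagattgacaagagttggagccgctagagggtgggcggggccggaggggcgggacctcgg
Aldoc: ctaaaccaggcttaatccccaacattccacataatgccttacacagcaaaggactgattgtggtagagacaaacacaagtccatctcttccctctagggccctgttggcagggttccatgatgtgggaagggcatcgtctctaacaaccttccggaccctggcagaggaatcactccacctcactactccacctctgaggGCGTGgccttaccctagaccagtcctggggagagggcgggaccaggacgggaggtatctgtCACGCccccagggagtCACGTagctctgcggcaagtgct
Ankrd37: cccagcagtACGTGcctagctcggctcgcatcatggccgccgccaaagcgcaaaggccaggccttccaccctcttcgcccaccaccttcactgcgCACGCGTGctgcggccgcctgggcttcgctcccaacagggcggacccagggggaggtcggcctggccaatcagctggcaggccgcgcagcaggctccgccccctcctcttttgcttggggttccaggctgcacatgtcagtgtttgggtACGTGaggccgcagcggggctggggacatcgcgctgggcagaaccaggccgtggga
Higd1a: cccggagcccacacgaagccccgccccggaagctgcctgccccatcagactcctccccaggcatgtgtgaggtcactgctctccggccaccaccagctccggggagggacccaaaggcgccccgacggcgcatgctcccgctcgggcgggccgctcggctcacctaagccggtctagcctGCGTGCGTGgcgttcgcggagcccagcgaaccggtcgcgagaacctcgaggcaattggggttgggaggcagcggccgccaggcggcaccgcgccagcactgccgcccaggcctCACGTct
Eno2: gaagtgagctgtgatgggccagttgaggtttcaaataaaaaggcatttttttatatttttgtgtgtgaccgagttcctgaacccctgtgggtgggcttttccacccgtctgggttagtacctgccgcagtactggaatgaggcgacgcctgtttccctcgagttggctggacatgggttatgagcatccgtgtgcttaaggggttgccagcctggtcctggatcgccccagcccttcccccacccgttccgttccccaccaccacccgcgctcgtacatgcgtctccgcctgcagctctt
Pfkfb3: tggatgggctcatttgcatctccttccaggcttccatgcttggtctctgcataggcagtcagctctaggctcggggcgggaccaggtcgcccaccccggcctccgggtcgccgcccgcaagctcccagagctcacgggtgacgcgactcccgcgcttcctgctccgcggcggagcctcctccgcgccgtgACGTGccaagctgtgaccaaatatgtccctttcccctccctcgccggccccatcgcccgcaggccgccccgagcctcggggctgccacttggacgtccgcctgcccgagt
The Car9 window holds 1 ACGTG, whose first base is at position -18 from the start, and the Ankrd37 window holds 2. The Pfkfb4 window holds no ACGTG and 1 GCGTG. Of the members shown that rose, the Eno2 window holds neither. The Pfkfb3 window shown holds 1 ACGTG, with its first base at position -60, and no GCGTG. Pfkfb3 has 2 windows, and the one not shown holds more, 2 ACGTG and 2 GCGTG. The windows of Gpi1 and Tpi1, which are not shown, hold neither motif, and both genes were called lower with the guides.

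The sets could be compared because each held both groups. The guide effect differed between set 2 and set 1 in 12 of the 34 members (15.7% of all genes), 11 lower and 1 higher in set 2 (7.49% and 8.19% of genes). In set 2 alone 29 members were called lower and 5 higher (36.4% and 35.7% of genes), with a median of -0.61, and in set 1 alone 14 lower and 3 higher (13.0% and 14.6%), with a median of -0.36. In each set 29 of 34 fitted values were negative. The largest called differences were in Ndrg1 (-1.10, SE 0.0567, adjusted p = 4.43e-08; -2.07 in set 2, -0.98 in set 1) and Ankrd37 (-1.06, SE 0.144, adjusted p = 0.000285; -1.76 and -0.71 in the same order), followed by Kdm3a and P4ha1 (both -0.73), Gpi1 (-0.62) and Gapdh (-0.57). Slc2a1 differed by -0.43, Ero1l and Egln1 by -0.39, Aldoa by -0.37 and Vegfa by -0.36, and Hif1a by 0.39. Car9, Pfkfb4, Aldoc, Higd1a, Ldha, Slc16a3 and Pfkfb3 were not called for a difference, with adjusted p between 0.0868 and 0.978. Without guide replicate 2 the count was 22, 16 lower and 6 higher, and the share of all genes rose with it to 37.9% (18.4% lower and 19.5% higher). Without guide replicates 5 and 6 and control replicate 6, the samples highest in Rn45s, the count was 7, all lower, where 4.15% of all genes were called. Both sets had guide samples low in H2afz (5.22 CPM in set 2, 5.13 CPM in set 1), while H2afv averaged 28.7 CPM in set 2 guides and 50.7 CPM in set 1 guides. The part of these features in the differences was not tested.

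**Figure D4:**
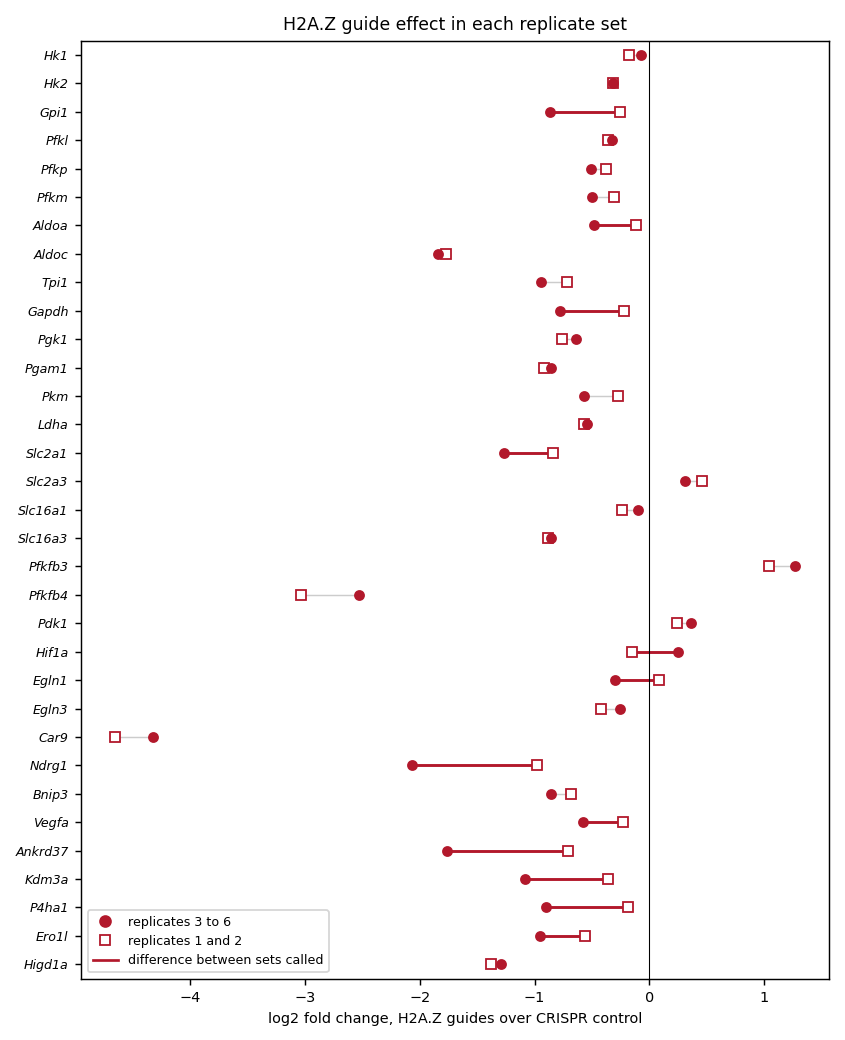
Log2 fold change of H2A.Z guides over CRISPR control (horizontal axis) fitted in replicates 3 to 6 (filled circles) and in replicates 1 and 2 (open squares) for 33 members; Eno2 is left out because the controls held 1 count. Dark lines join the values of the 12 members whose difference was called; Ndrg1 and Ankrd37 have the longest, and the Car9 values, -4.32 and -4.65, lie close together.

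Treatment of NICD-ER cells with 4-OHT for 24 hours was accompanied by a smaller and broad decrease. Of 34 members tested, 24 were called lower and 5 higher, where 17.2% and 19.0% of 12499 genes were (36.2% in all). By at least 1.5-fold 3 were lower and 3 higher (2.69% and 4.37% of genes, 7.06% in all). The median log2 fold change was -0.29, and 0.00 over all genes. With 2 samples a group, 26 tested members had both 4-OHT samples below both ethanol samples and 5 above (33.4% and 32.7% of genes, 66.1% in all). When the spread was estimated from all 20 samples in 1 model, 8 members were called lower and 3 higher (Hk1, Pfkfb4 and Vegfa), where 2.52% and 4.82% of 11988 genes were. The 6 fibroblast markers summed to 1.57 and 1.34 CPM with 4-OHT and to 0.129 and 0.186 CPM with ethanol, with Pdgfrb alone at 1 CPM or more and Col1a2, Col3a1 and Dcn at 0 with 4-OHT. The 5 myeloid markers summed to 1.88 and 1.47 CPM with 4-OHT and to 2.01 and 1.40 CPM with ethanol. Of the 2 tested, Lyz2 was called lower, at 0.216 ± 0.132 CPM with 4-OHT and 0.574 ± 0.241 CPM with ethanol (SD, n = 2 each). The other had a positive fold change that was not called. Itgam averaged at least 1 CPM with 4-OHT, and no myeloid marker did so with ethanol. The part of these markers in the result was not tested.

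The 5 that rose were Hk1, Pfkfb4, Vegfa, Ankrd37 and Hif1a. Hk1, the constitutive hexokinase, had 484 and 500 CPM with 4-OHT, against 293 and 288 CPM with ethanol. Both 4-OHT samples lay far above both others (0.76, SE 0.0345, adjusted p = 1.41e-14), while Hk2, the inducible hexokinase, changed by -0.33. Hk1 thereby made up 75.3% to 75.4% of the hexokinase pair per kilobase with 4-OHT and 58.4% to 59.5% with ethanol. Pfkfb4 had 12.8 and 12.2 CPM with 4-OHT, against 8.22 and 6.58 CPM with ethanol (0.76, SE 0.107, adjusted p = 4.24e-06). Vegfa had 298 and 301 CPM with 4-OHT, against 192 and 199 CPM with ethanol (0.62, SE 0.0370, adjusted p = 2.47e-12). For both genes the groups were clearly separate. Hif1a had 557 and 567 CPM with 4-OHT, against 490 and 509 CPM with ethanol (0.17, SE 0.0394, adjusted p = 0.00121), and Ankrd37 had 37.4 and 36.2 CPM against 31.0 and 30.2 CPM (0.27, SE 0.0523, adjusted p = 0.000262).

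Members of every role were among the 24 called lower. Eno2 had 3.03 and 2.84 CPM with 4-OHT, against 5.92 and 5.43 CPM with ethanol (-0.95, SE 0.146, adjusted p = 1.54e-05). Egln3 had 313 CPM in both 4-OHT samples, against 525 and 504 CPM with ethanol (-0.71, SE 0.0376, adjusted p = 2.76e-13). Slc16a3 had 55.8 and 50.9 CPM with 4-OHT, against 78.6 and 84.2 CPM with ethanol (-0.61, SE 0.0492, adjusted p = 6.78e-10). In each of these 3 both 4-OHT samples were the lower ones. Ndrg1 changed by -0.50 (628 and 640 CPM with 4-OHT, against 895 and 897 CPM), Aldoa by -0.44 (2670 and 2780 CPM, against 3710 and 3670 CPM), Slc2a1 by -0.43 (227 and 223 CPM, against 314 and 293 CPM) and Gpi1 by -0.42 (537 and 539 CPM, against 734 and 710 CPM). The 4-OHT samples were the lower ones in all 4. Smaller falls were those of Bnip3 (-0.42), Ero1l (-0.41), Slc2a3 (-0.40), P4ha1 (-0.39), Pfkm (-0.38), Aldoc (-0.36), Pdk1 (-0.28), Pgk1 (-0.26), Egln1 (-0.24), Pkm (-0.20), Tpi1 (-0.19) and Pfkl (-0.15). Ldha had 819 and 838 CPM with 4-OHT, against 1010 and 990 CPM with ethanol, and changed by -0.27 (SE 0.0356, adjusted p = 2.00e-06). Car9, which fell so far with the guides, had 31.8 and 30.6 CPM with 4-OHT, against 39.8 and 37.0 CPM with ethanol (-0.30). Pgam1 had 1.40 and 1.54 CPM with 4-OHT, against 2.30 and 2.11 CPM with ethanol (-0.57), and lost its call when any 1 of the 4 samples was left out, and Pfkfb3, at -0.28, lost it without 4-OHT replicate 2 or ethanol replicate 1. The 5 not called were Pfkp (-0.02), Gapdh (-0.31), Slc16a1 (0.06), Kdm3a (-0.03) and Higd1a (-0.13). Gapdh was called lower under 5 alternatives, among them without ethanol replicate 2 (-0.45, adjusted p = 0.0187) and with a replicate block (-0.31, adjusted p = 0.0376).

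Between BioNICD lines the glycolysis members leaned the other way, and the oxygen sensing and hypoxia response genes were mixed. In DEP mutant cells 21 were called higher and 8 lower than in wild type, where 33.6% and 32.0% of 12499 genes were (65.6% in all). By at least 1.5-fold 4 were higher and 3 lower (8.97% and 16.4% of genes, 25.4% in all). The median was 0.15, and 0.02 over all genes. Of the 22 tested enzymes, transporters and regulators, 16 were higher and 4 lower (median 0.18). Of the 12 genes of oxygen sensing and hypoxia response, 5 were higher and 4 lower (median 0.03), near the shares of all genes. Both DEP samples lay above both wild-type samples in 21 members and below in 10 (39.9% and 40.5% of genes, 80.4% in all). In 1 model of all 20 samples 9 were called higher and 4 lower (Hk1, Pfkfb4, Hif1a and Vegfa), where 17.3% and 21.7% of 11988 genes were. The small differences of Aldoc, Ldha, Pkm and Slc2a1, at most 0.10 in size, and that of Pgam1, 0.47 on few counts, lost their calls under several alternatives. Markers of other cell types moved with this comparison. The 5 myeloid markers summed to 0.649 and 0.658 CPM in DEP and to 63.2 and 61.8 CPM in wild type, with Itgam alone at 1 CPM or more. The 6 fibroblast markers summed to 0.118 and 0.282 CPM in DEP and to 114 and 117 CPM in wild type, with Pdgfrb alone at that level and Col1a2, Col3a1 and Pdgfra at 0. The part of these in the result was not tested.

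Vegfa stood out. It had 413 and 414 CPM in DEP cells, against 1170 and 1160 CPM in wild type, the highest level of any group. The log2 fold change was -1.48 (SE 0.0370, adjusted p = 3.43e-20). Hk1 had 250 and 251 CPM in DEP cells, against 427 and 430 CPM in wild type (-0.75, SE 0.0352, adjusted p = 6.83e-15), and Pfkfb4 had 7.72 and 9.49 CPM against 14.8 and 14.6 CPM (-0.74, SE 0.114, adjusted p = 4.91e-06). Hif1a had 342 and 367 CPM in DEP cells, against 468 and 449 CPM in wild type (-0.35, SE 0.0401, adjusted p = 5.33e-08). All 4 were lower in both DEP samples. Ndrg1 changed by -0.32 (3530 and 3480 CPM in DEP, against 4430 and 4420 CPM), Car9 by -0.23 (131 and 123 CPM, against 153 and 148 CPM), Pfkl by -0.13 (390 and 396 CPM, against 437 and 432 CPM) and Slc2a1 by -0.10 (540 and 516 CPM, against 565 and 579 CPM).

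Higher in the mutant were 13 of 15 tested enzymes, 3 of 4 transporters, Egln3 and 4 of 9 hypoxia response genes. Another 3 of those 9 were lower. Eno2 had 2.18 and 1.78 CPM in DEP cells, against 0.724 and 0.669 CPM in wild type (1.49, SE 0.262, adjusted p = 2.90e-05). P4ha1 had 990 and 1030 CPM in DEP cells, against 564 and 555 CPM in wild type (0.87, SE 0.0380, adjusted p = 1.89e-15). Ero1l had 3350 and 3540 CPM in DEP cells, against 2130 and 2100 CPM in wild type (0.72, SE 0.0330, adjusted p = 4.73e-15). The groups of these 3 did not overlap. Gpi1 rose by 0.67 (1540 and 1500 CPM in DEP, against 966 and 962 CPM), Aldoa by 0.55 (7020 and 6910 CPM, against 4790 and 4840 CPM) and Gapdh by 0.51 (11.0 and 10.1 CPM, against 7.80 and 7.07 CPM). Slc2a3 rose by 0.50 (57.0 and 51.6 CPM, against 38.9 CPM in both wild-type samples) and Kdm3a by 0.48 (186 and 183 CPM, against 134 CPM in both). None of these 5 overlapped. Smaller rises were those of Pgk1 (0.45), Pfkm (0.36), Higd1a (0.29), Hk2 and Slc16a1 (both 0.25), Egln3 (0.20), Slc16a3 (0.18), Tpi1 (0.17) and Pfkp (0.13). Ldha had 1290 and 1340 CPM in DEP cells, against 1230 and 1280 CPM in wild type (0.09, SE 0.0355, adjusted p = 0.0400). Pfkfb3 (0.08), Pdk1 (-0.07), Egln1 (0.02), Bnip3 (0.03) and Ankrd37 (-0.01) were not called.

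The NICD comparisons share no samples, so they can be read against each other. Of the 24 members called in both, 20 had opposite signs, 83.3%, against 73.9% of the 3561 genes called in both. Hk1, Pfkfb4, Vegfa and Hif1a were higher with 4-OHT and lower in the DEP mutant, and 16 members were the reverse, among them Eno2, P4ha1, Ero1l, Gpi1 and Aldoa. Of the 3561 genes, 1338 were higher with 4-OHT and lower in the mutant and 1294 the reverse. Pfkl, Slc2a1, Car9 and Ndrg1 were lower in both and no member was higher in both, where 380 and 549 of the 3561 genes were. In the test of the difference, 4-OHT over ethanol minus wild type over DEP, 22 of 34 members were called, 14 lower and 8 higher (25.1% and 26.4% of genes, 51.5% in all). The largest were Vegfa (-0.85, SE 0.0519, adjusted p = 3.34e-12) and Ndrg1 (-0.81, SE 0.0416, adjusted p = 1.44e-13). Hk1 (0.01) and Pfkfb4 (0.02) were not called, with SEs of 0.0491 and 0.158, which does not show that their effects were equal.

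**Figure D5:**
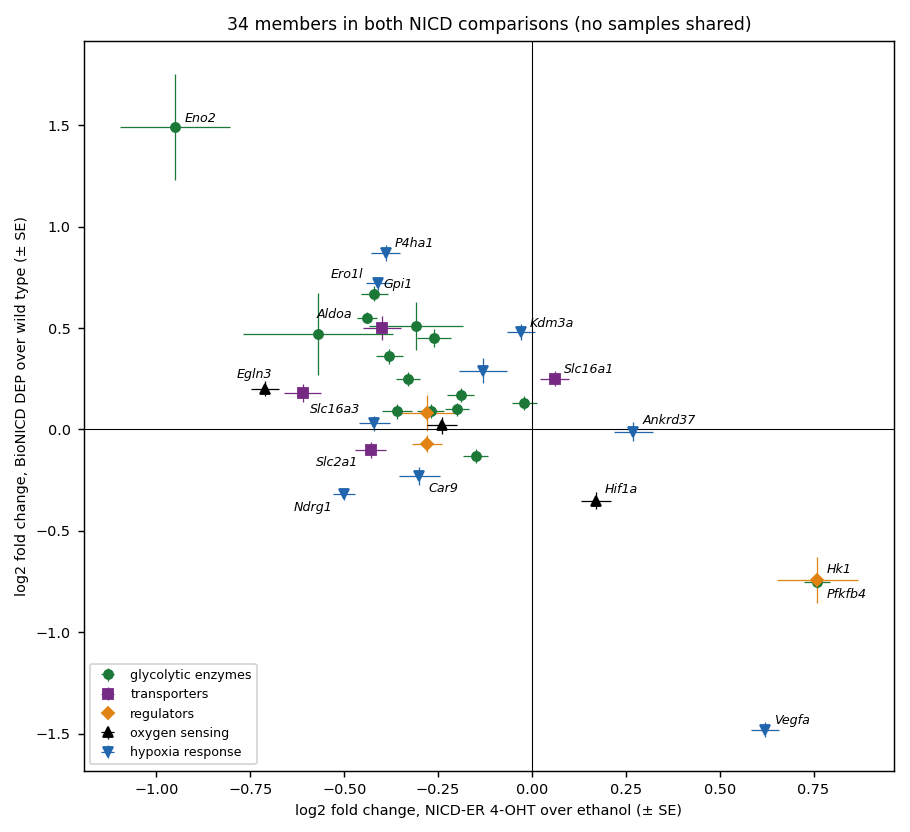
Log2 fold change of the 34 tested members with 4-OHT over ethanol (horizontal axis) and in the BioNICD DEP mutant over wild type (vertical axis), each ± SE, with symbols by role. Eno2, P4ha1, Ero1l and Gpi1 lie at the upper left, Vegfa, Hk1 and Pfkfb4 at the lower right, and Ndrg1, Car9 and Slc2a1 at the lower left.

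Levels across the 3 pairs of groups are given as a description, since the file headers record separate output directories for them. Ndrg1 averaged 634 and 896 CPM in the NICD-ER groups (4-OHT, ethanol), 1250 CPM with the guides, and 3500 to 4430 CPM in the BioNICD and CRISPR control groups. Car9 was lowest with the guides, at 8.59 CPM, followed by 31.2 CPM with 4-OHT and 38.4 CPM with ethanol, and lay between 127 and 184 CPM in the other 3 groups. Per kilobase of exon, Aldoa was the highest member in every group, at 3380 CPM with the guides, 4250 CPM in the CRISPR controls, 1490 and 2020 CPM with 4-OHT and ethanol, and 3820 and 2640 CPM in DEP and wild type.

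Genes of neighbouring pathways were counted from lists of the same origin. The shares of all genes to read these counts against are 32.7% lower and 31.8% higher with the guides, 17.2% lower and 19.0% higher with 4-OHT, and 32.0% lower and 33.6% higher in DEP cells. Of 22 tested other HIF targets, 18 were lower and 3 higher with the guides (median -0.53), 12 lower and 5 higher with 4-OHT (-0.16), and 6 lower and 11 higher in DEP cells (0.13). The 5 higher with 4-OHT and the 6 lower in DEP cells lie near those shares. With the guides Kdm4b, a histone demethylase, rose by 1.46 and Ak4, a mitochondrial adenylate kinase, fell by 0.98. Adm, the vasodilator adrenomedullin, rose by 0.98 with 4-OHT and Mxi1, a partner of Max, fell by 0.55, and in DEP cells Tfrc, the transferrin receptor, rose by 0.97 and Bhlhe40, a transcriptional repressor, fell by 0.90.

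The pentose phosphate pathway branches from glycolysis. Of its 10 genes 4 were higher and 1 lower with the guides (median 0.04), led by Pgls, the lactonase (149 ± 30.0 CPM with the guides, against 73.5 ± 7.08 CPM in controls, 1.00; Pgls too lies on chromosome 8), G6pdx, the entry enzyme (0.55), and Tkt, a transketolase (0.29). Of 26 tested genes of pyruvate entry and the TCA cycle, 14 were lower and 3 higher (median -0.12), none by 1.5-fold, with Pdk3, another kinase of pyruvate dehydrogenase (-0.51), Mdh2, a malate dehydrogenase (-0.42), and Pdhx, a subunit of that complex (-0.41), the largest. With 4-OHT the same lists held 3 higher and 3 lower (0.04) and 3 higher and 7 lower (-0.02), and in DEP cells 5 higher and 2 lower (0.05) and 15 higher and 2 lower (0.12). The leading genes with 4-OHT were Taldo1, a transaldolase (0.47), Pgls (-0.34), Rpe, an epimerase (0.20), Pdp1, a phosphatase that reopens pyruvate dehydrogenase (-0.42), Dlst (0.35) and Sdhb (-0.24), subunits of TCA cycle enzymes. In DEP cells they were Prps1, which makes the ribose precursor of nucleotides (0.73), Pgd (-0.41), Pgls (0.39), Pdp2 and Pdp1 (both 0.70) and Pdha1, a subunit of pyruvate dehydrogenase (0.54). Of 8 tested other glycolysis genes, 2 were higher and 2 lower with the guides, with Bpgm, which makes 2,3-bisphosphoglycerate, at 73.0 ± 6.45 CPM with the guides, against 32.9 ± 3.90 CPM in controls (1.14), Ldhb at -0.48 and Tigar at -0.28. With 4-OHT 3 were lower (Eno3 -0.47, Bpgm -0.35, Pck2 -0.11) and none higher, and in DEP cells 3 were higher (Eno3 0.94, Ldhb 0.42, Pck2 0.30) and none lower.

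Among other components of HIF signalling, 6 of 12 tested were lower and 3 higher with the guides, led by Siah2 (-0.73), a ubiquitin ligase for the prolyl hydroxylases, Vhl (-0.53), the subunit that recognises hydroxylated HIF, and Tceb1 (-0.45), its partner elongin C. With 4-OHT 2 of 14 were higher and 1 lower, and in DEP cells 8 higher and 3 lower, with Siah1a (0.49), Egln2 (-0.45) and Epas1 in front. Epas1, which encodes HIF-2α, averaged 4.71 ± 0.0187 CPM with 4-OHT and 1.68 ± 0.0950 CPM with ethanol (SD, n = 2 each; 1.49, SE 0.143, adjusted p = 1.26e-08). It averaged 108 ± 1.73 CPM in wild-type BioNICD (SD, n = 2), and the DEP samples together held 1 count against 7963. The pooled ratio of DEP to wild type was 0.000242 (95% counting interval 6.12e-06 to 0.00135). With Cited2, a HIF coactivator competitor, at -0.28 and Siah2 at 0.14, these were the genes called with 4-OHT. The 6 guide samples held no Epas1 count and the 6 CRISPR controls 1.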

How the data were processed

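RNA-seq gene counts were deposited for 20 samples of 6 groups. Per the file headers, the deposited counts were made with featureCounts 1.5.0 on exons of UCSC mm9 genes, with no option recorded for strand or for reads mapping to several places. Per the submitters' processing notes, FastQC, Trimmomatic, STAR, featureCounts and DESeq2 were used. Per the labels' protocols, libraries were stranded total RNA depleted of ribosomal RNA. Because strand was not used in counting, reads of Pfkp, Tpi1 and Ankrd37 cannot be told from those of Pitrm1, Spsb2 and Ufsp2 where exons overlap.

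Counts were tested with edgeR 4.0.16 (R 4.3.3; limma 3.58.1), quasi-likelihood, TMM scaling and filterByExpr by group, with Benjamini-Hochberg adjustment over all genes. The 12 CRISPR samples were fitted with the label set as covariate (10662 genes) and the 8 NICD samples with 1 coefficient per group (12499 genes). A call is an adjusted p under 0.05, and the SE is the absolute log2 fold change over the square root of F. Scripts were tested on simulated counts. Total counts of 10704131 to 48238324 per sample limit precision most for Eno1, Pgam1, Gapdh and Eno2. Intervals cover counting error only. Alternatives included DESeq2 1.42.0, other scalings, filters, leaving out samples and a replicate block. Figures were drawn with matplotlib 3.10.9. Values are printed for up to 8 called members with the largest change in each direction and comparison and for Hif1a, Ldha and Slc2a1, and up to 3 called genes with the largest change are named from each other list, except 1 that is not reported here; values of further members were added after they were seen. The members and lists were chosen with earlier results of these data known.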

Additional observations from a re-analysis of the deposited data

Results flagged for a closer look

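Of 70 groups of 6 CRISPR samples tested for a sample far from the rest, 6 were picked out. Chance picks about 1 in 20 groups when the samples are alike. These groups join set 1 and set 2, so that rate need not hold here. Guide replicate 1 stood apart in Tpi1 (987 CPM, the others 671 to 767 CPM), Pkm (2650 CPM, the others 1620 to 1950 CPM) and Pdk1 (173 CPM, the others 196 to 208 CPM). Guide replicate 2 stood apart in Egln3 (607 CPM, the others 514 to 547 CPM). Eno1 in guide replicate 4 (0.0648 CPM) and Eno2 in control replicate 4 (0.0657 CPM) held 1 read each, where the other samples of the group held 0. A lone read among zeros gives the largest possible gap, so these picks say little.

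The effect of the H2A.Z guides differed between set 2 and set 1, by an interaction test in edgeR, for 12 members. The difference in log2 fold change, set 2 minus set 1, was -1.10 for Ndrg1, -1.06 for Ankrd37, -0.73 for Kdm3a and for P4ha1, -0.62 for Gpi1 and -0.57 for Gapdh. It was -0.43 for Slc2a1, -0.39 for Egln1 and for Ero1l, -0.37 for Aldoa, -0.36 for Vegfa and 0.39 for Hif1a.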

How the results depend on the processing

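Of 1767 values of single members under the alternatives, 1643 kept their direction and their side of the threshold, 99 lost a call, 13 gained one and 12 changed sign. In set 1 alone the guide comparison gave 14 members lower, 10 of them by at least 1.5-fold, a median of -0.36 and 2948 genes called, against 6874 with both sets; Hif1a was then at -0.15 and Egln1 at 0.08. One model over all 20 samples called 3 members higher and 8 lower with 4-OHT (880 genes, against 4521) and 9 higher and 4 lower in DEP (4670 genes, against 8194); the cause was not tested. The 4-OHT median was -0.32 under upper quartile scaling and ran from -0.32 to -0.27 when single samples were left out. The DEP median was 0.13 with DESeq2 and with RLE scaling, 0.19 with upper quartile scaling, 0.17 with no filter, 0.12 with Rn45s left out of the library sizes and in its own 4 samples, and 0.14 to 0.18 when single samples were left out. The signs of uncalled members turned in DEP for Ankrd37 (0.02 with upper quartile scaling), Egln1 (-0.01 with Rn45s left out and in its own 4 samples, -0.02 to 0.07 leaving out samples), Bnip3 (0.00 with Rn45s left out, -0.01 to 0.07) and Pfkfb3 (-0.03 to 0.19), and with 4-OHT for Kdm3a (-0.06 to 0.00). The count of members differing between sets ran from 8 to 22 leaving out single samples, with 22 without guide replicate 2, and was 7 (447 genes, against 1672) without the 3 samples highest in Rn45s, an alternative chosen after seeing the data. Leaving out single samples gave 27 to 29 members lower with the guides, 22 to 24 lower with 4-OHT and 17 to 20 higher in DEP. A replicate block gave 4 higher and 29 lower with the guides, 5 and 25 with 4-OHT, and 20 and 8 in DEP, where Pgam1 lost its call (adjusted p = 0.0627, edgeR). Samples shared only a number: same-numbered deviations correlated at -0.111 to 0.149 in the CRISPR pairs, 0.102 in NICD-ER and -0.00626 in BioNICD. Low counts of Eno1, Pgam1, Gapdh and Eno2 limit what depth can show.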
